A study of Mus musculus with 8 samples.

Results

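The ileal bile acid axis was followed in RNA from intestinal crypts through 8 genes: the apical uptake transporter Slc10a2, the cytosolic binding protein Fabp6, the basolateral exporter subunits Slc51a and Slc51b, the nuclear receptors Nr1h4 (FXR) and Nr1h5 (FXRβ), and the FXR targets Fgf15 and Nr0b2 (SHP). They are the rows with these symbols, 8 of the 55114 genes in the deposited table. The genes were chosen by their values in this very comparison and by their correlation across the mice, so that their levels, fold changes and correlations are given as a description, with no test. Of the 8 genes, 7 passed the filter on low counts, and Nr1h5 did not.

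RNA was sequenced from crypts that EDTA had loosened from the intestine of C57BL/6 mice at 8 weeks of age. The KO group held 4 Mex3a-/- mice, which lack exon 1 and part of exon 2 of Mex3a in every cell, and the WT group held 4 littermate controls; the labels do not say which segment of the intestine was used. Mex3a itself had 236 to 328 counts in the WT mice and 6 to 28 in the KO mice. Total counts per mouse were 20324184 to 24726221 in WT and 23489180 to 30654105 in KO. Mice 1 and 2 of each genotype carried Y-linked transcripts and mice 3 and 4 carried Xist. The crypt markers were abundant, with 3895 ± 408 CPM of Olfm4, of stem cells, and 9578 ± 5559 CPM of Lyz1, of Paneth cells, in the WT mice (SD, n = 4), and 6 of 10 colon genes had no count in any mouse.

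Bile acids are made in the liver, released into the gut and reclaimed in the terminal ileum, where SLC10A2 carries them across the brush border, FABP6 binds them in the enterocyte, and the SLC51A-SLC51B dimer passes them on to the portal blood. Inside the cell they activate FXR, which pairs with RXR and binds inverted repeats of a hexamer in its target genes. FXR induces Fabp6, Slc51a, Slc51b, Fgf15 and Nr0b2, and the FGF15 hormone then restrains bile acid synthesis in the liver.

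The promoters of the 4 transport genes are shown because the levels of these genes varied together across the mice and because FXR acts through such sequences. RefSeq promoter windows on GRCm38.p6, from 250 bases before to 50 bases after the start taken for each gene, were matched by symbol for 7 of the 8 genes (Fgf15 was not matched). Capitals mark every match, on either strand, to 3 patterns: the FXR inverted repeat AGGTCANTGACCT with at most 2 mismatches in its fixed letters, the nuclear receptor hexamer AGGTCA, and the CDX-type hexamer TTTATG. An exact inverted repeat would also contain the nuclear receptor hexamer on both strands. The windows, read 5′ to 3′ on the strand of the gene, are chr11:43601513-43601812 (minus strand) for Fabp6, chr8:5105238-5105537 (minus) for Slc10a2, chr16:32487830-32488129 (minus) for Slc51a and chr9:65422724-65423023 (minus) for Slc51b.
Fabp6: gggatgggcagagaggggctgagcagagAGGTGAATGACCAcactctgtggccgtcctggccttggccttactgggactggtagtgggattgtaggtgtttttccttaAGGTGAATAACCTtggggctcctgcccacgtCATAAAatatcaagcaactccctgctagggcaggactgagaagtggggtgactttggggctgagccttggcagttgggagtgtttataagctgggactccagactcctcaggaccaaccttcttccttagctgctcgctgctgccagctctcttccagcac
Slc10a2: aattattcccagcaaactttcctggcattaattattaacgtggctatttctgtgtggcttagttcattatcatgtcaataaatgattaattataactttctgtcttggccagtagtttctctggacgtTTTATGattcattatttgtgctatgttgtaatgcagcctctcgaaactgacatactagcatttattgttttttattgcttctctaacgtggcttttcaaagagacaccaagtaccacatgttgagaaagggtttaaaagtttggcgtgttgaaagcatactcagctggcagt
Slc51a: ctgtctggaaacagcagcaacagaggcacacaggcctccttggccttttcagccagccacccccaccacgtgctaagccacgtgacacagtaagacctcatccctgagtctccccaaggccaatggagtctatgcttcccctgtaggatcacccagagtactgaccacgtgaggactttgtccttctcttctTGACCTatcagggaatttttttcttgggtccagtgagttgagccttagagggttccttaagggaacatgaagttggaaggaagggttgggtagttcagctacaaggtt
Slc51b: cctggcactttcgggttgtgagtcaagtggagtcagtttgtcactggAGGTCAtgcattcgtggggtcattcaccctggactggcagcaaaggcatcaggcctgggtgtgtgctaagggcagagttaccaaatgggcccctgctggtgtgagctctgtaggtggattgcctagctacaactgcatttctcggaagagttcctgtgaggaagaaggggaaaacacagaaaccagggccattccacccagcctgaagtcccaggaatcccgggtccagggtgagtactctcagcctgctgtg
The Fabp6 window held 2 matches to the inverted repeat, AGGTGAATGACCA from base 29 and AGGTGAATAACCT from base 109 of the window, each with 2 mismatches. Of all 32851 promoter windows, 374 (1.14%) held such a match, and of the 7 matched genes only Fabp6 did. The nuclear receptor hexamer was found in 3 of the 7 windows (Slc51a, Slc51b and Nr1h4) and in 16.3% of all windows. The CDX-type hexamer was found in 4 of the 7 (Fabp6, Slc10a2, Nr1h4 and Nr1h5) and in 11.9% of all. The Nr1h4 window lies inside the span of the gene, at the start of a shorter transcript. These matches describe letters only, and no binding was measured.

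Expression of the uptake and export genes was higher in the KO crypts, with a wide spread between mice. Mean levels of Slc10a2, Fabp6, Slc51a and Slc51b were 2.14 to 3.45 times as high in KO as in WT, in CPM (read counts scaled by the TMM-normalised library size). In each of the 4 genes, KO was above WT within all 4 same-numbered pairs of mice, and 3 of the 4 KO mice lay above the highest WT mouse. The shares of all genes tested that meet these criteria are not given here, so the counts describe the chosen genes only. None of the 7 fitted genes separated the genotypes completely (0 of 7), where 2.17% of all 16109 genes tested had every KO mouse above every WT mouse and 1.87% had every KO mouse below. Without WT mouse 4 Slc10a2, Slc51a and Slc51b did separate, and without KO mouse 1 Fabp6, Slc51a and Slc51b did, 3 genes in each case, where 5.23% and 6.29% of all genes tested without that mouse had every KO mouse above every WT mouse. In bulk crypt RNA, more cells of a type and more RNA per cell cannot be told apart.

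Slc10a2 (chr8:5083219-5105351, GRCm38) encodes the sodium-dependent transporter that takes bile acids up from the lumen. Its level in WT mice 1 to 4 was 2.31, 7.33, 10.0 and 40.8 CPM, and in KO mice 1 to 4 it was 44.3, 30.8, 45.0 and 88.3 CPM. WT mouse 4 stood with the KO mice and above KO mouse 2, whereas the other 3 WT mice were below all KO mice. Means were 15.1 ± 17.4 CPM in WT and 52.1 ± 25.0 CPM in KO (SD, n = 4), and the fitted log2 fold change was 1.78 ± 0.72 (SE). Without WT mouse 4 it was 2.997.

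Fabp6 (chr11:43596049-43601540) encodes the ileal lipid-binding protein and was by far the most abundant of the 8 genes. It reached 32.0, 292, 151 and 239 CPM in WT mice 1 to 4 and 277, 529, 421 and 582 CPM in KO mice 1 to 4. WT mouse 1 lay far below the other WT mice, and KO mouse 1 lay between WT mice 4 and 2, so that only WT mouse 2 exceeded a KO mouse. Means were 178 ± 114 CPM in WT and 452 ± 135 CPM in KO (n = 4), a log2 fold change of 1.34 ± 0.54 (SE). Of all genes tested, 0.819% had a larger one. Without WT mouse 1 the value was 0.99, and without WT mouse 2 it was 1.69.

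Slc51a (chr16:32474504-32487879) and Slc51b (chr9:65412714-65422955) encode the subunits of the basolateral exporter OSTα-OSTβ, which reaches the membrane only as a dimer. Slc51a had 43.8, 70.5, 67.0 and 111 CPM in WT mice 1 to 4 and 97.5, 122, 217 and 189 CPM in KO mice 1 to 4. Slc51b had 3.33, 11.2, 6.88 and 21.4 CPM in the WT mice and 16.5, 27.1, 41.3 and 37.3 CPM in the KO mice. Both genes had the same order of mice, with WT mouse 1 lowest, KO mouse 3 highest, and WT mouse 4 above KO mouse 1. The log2 fold changes were 1.1 ± 0.31 for Slc51a and 1.51 ± 0.50 for Slc51b (SE, 4 mice per genotype).

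**Figure D1:**
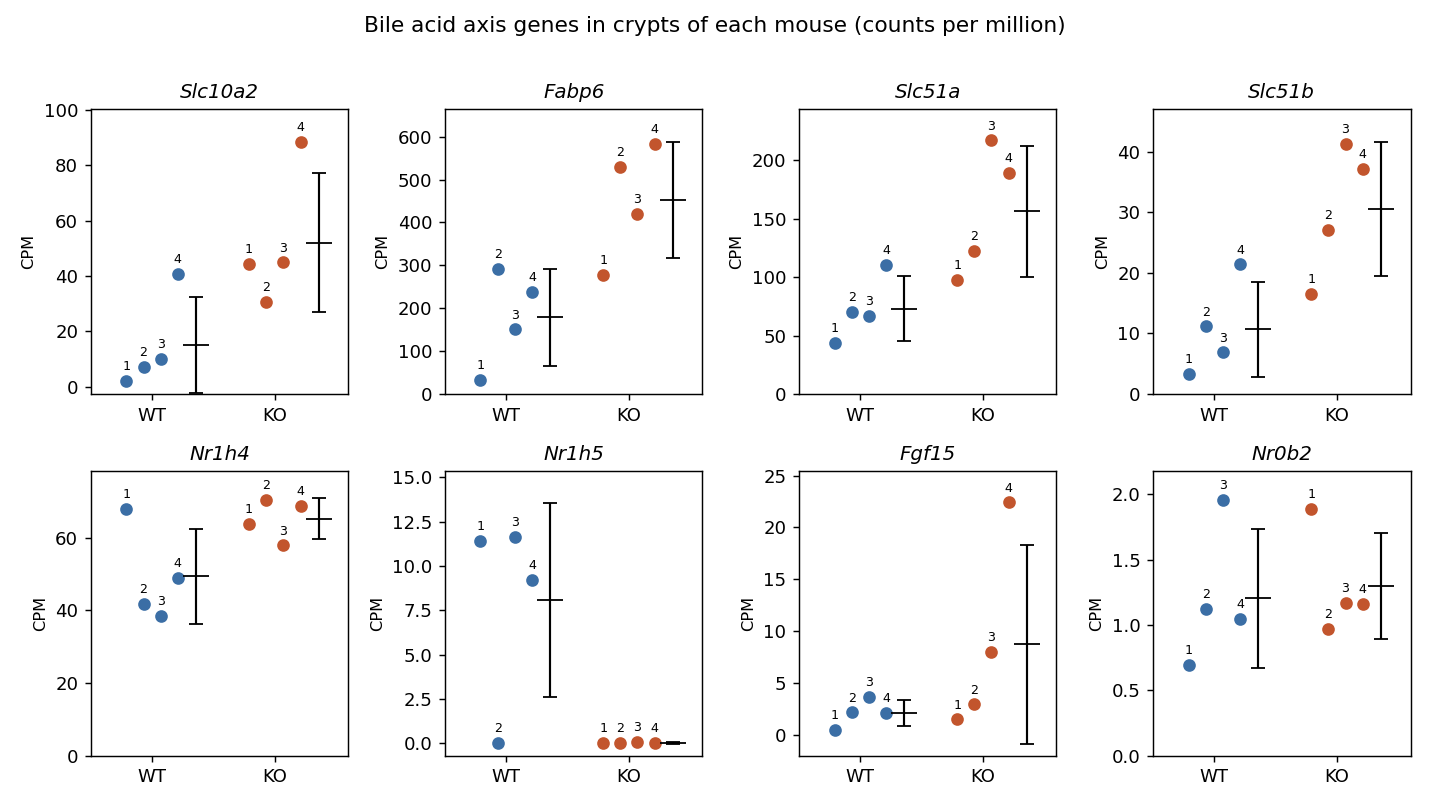
Level of each of the 8 genes in each mouse, in CPM on a linear axis, with WT mice in blue, KO mice in orange, replicate numbers above the points, and the mean ± SD of 4 mice as black bars. Slc10a2, Fabp6, Slc51a and Slc51b had 3 KO mice above the highest WT mouse, and Nr1h5 was present in 3 WT mice and at or near 0 in the other 5.

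The balance of the exporter subunits was more uniform in KO than in WT crypts. Per kilobase (FPKM), the ratio of Slc51a to Slc51b was 2.92, 1.40, 2.16 and 1.15 in WT mice 1 to 4, and 1.31, 0.998, 1.16 and 1.12 in KO mice 1 to 4. Its mean was 1.91 ± 0.80 in WT and 1.15 ± 0.13 in KO (SD, n = 4). It was lower in KO in all 4 pairs, but KO mouse 1 and KO mouse 3 lay above WT mouse 4, so that the ranges overlapped. No test was made, because both genes belong to the chosen set.

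The receptor Nr1h4 (chr10:89454234-89533585), which encodes FXR, differed far less than the transport genes. WT mice 1 to 4 had 68.0, 41.9, 38.6 and 48.9 CPM and KO mice 1 to 4 had 63.7, 70.5, 57.9 and 68.8 CPM. The KO mice lay close together and above 3 of the WT mice, while WT mouse 1, the lowest mouse for Fabp6, was among the highest for Nr1h4. Means were 49.4 ± 13.2 and 65.2 ± 5.68 CPM (n = 4), with a log2 fold change of 0.40 ± 0.16 (SE), and KO was above WT in 3 of 4 pairs.

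Nr1h5 (chr3:102939658-102964133), which encodes FXRβ, a relative of FXR that is a functional receptor in mice, followed another pattern. Its counts in WT mice 1 to 4 were 247, 0, 238 and 221, and in KO mice 1 to 4 they were 0, 0, 2 and 0. It was thus present at 9.23 to 11.6 CPM in 3 WT mice and not detected in 1 WT mouse, and in the KO mice it was at or near 0. Summed over mice, 2 KO and 706 WT counts gave a ratio of 0.00242 after division by total counts (exact 95% interval 0.000292 to 0.00876, counting error only, which does not cover the spread between mice). A count of 0 in WT mouse 2 allows a level of up to 0.140 CPM (3 counts). The gene did not pass the filter on low counts and has no fitted fold change.

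The Nr1h5 locus lies 14.4 Mb from Mex3a on the same chromosome. Within 1 Mb of Nr1h5, 15 genes were tested, with log2 fold changes from -0.26 to 1.16 and a median of -0.03. Of these 15 genes, 3 passed the unadjusted threshold. That is a larger share than over all genes (1350 of 16109), but it rests on few genes. The sequence of the region in each mouse was not analysed here. Chosen after its values were seen, the genes with at least 10 counts in the same 3 WT mice and at most 3 counts in the other 5 mice were Nr1h5 and the processed pseudogenes Gm11702, with 19, 0, 40 and 54 counts in WT and 0, 3, 0 and 1 in KO, and Hist1h2al, with 12, 0, 16 and 17 counts in WT and none in KO. Over all 8 mice the tested gene most like Nr1h5 was Gm3608 (r = 0.99 in log2 CPM), with 866, 317, 860 and 873 counts in WT and 326, 385, 313 and 366 in KO. Of the 10 most similar genes, 0 lay on chromosome 3, which holds 4.98% of the genes tested. At that share 0 of 10 is a common outcome, so the count carries no information on position. These likenesses rest on 8 libraries and on WT mouse 2 siding with the KO mice.

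Counts were low for the FXR target Nr0b2 in every mouse and for Fgf15 in all mice but KO mice 3 and 4. Fgf15 (chr7:144896531-144900953), the enterocyte hormone, had 10, 46, 74 and 51 counts in WT mice 1 to 4 and 35, 75, 185 and 674 counts in KO mice 1 to 4. KO mouse 4 alone held more reads than the other 7 mice together, KO mouse 3 came second, and KO mice 1 and 2 lay within the WT range in CPM. Means were 2.09 ± 1.29 CPM in WT and 8.70 ± 9.56 CPM in KO (n = 4), and the log2 fold change of 2.06 ± 0.83 (SE) was 0.98 without KO mouse 4. Nr0b2 (chr4:133553376-133556536), the corepressor SHP, had 15 to 40 counts in WT and 25 to 45 in KO. Its means were 1.2 ± 0.53 and 1.3 ± 0.40 CPM, its log2 fold change of 0.11 ± 0.35 (SE) was smaller than its standard error, and KO was above WT in 2 of 4 pairs.

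The order of the levels per kilobase was compared in FPKM. In WT crypts Fabp6 stood highest at 370 ± 236 FPKM, followed by Slc51a at 22.7 ± 8.64, Nr1h4 at 21.2 ± 5.55, Slc51b at 15.0 ± 11, Slc10a2 at 3.61 ± 4.16, Nr1h5 at 2.82 ± 1.92, Nr0b2 at 1.06 ± 0.47 and Fgf15 at 0.68 ± 0.42 FPKM (SD, n = 4). Only Fabp6 was separated from its neighbour in every WT mouse without overlap of the ranges. In KO crypts Fabp6 stood at 942 ± 280 FPKM, Slc51b at 43.0 ± 15.5 moved ahead of Nr1h4 at 28.3 ± 2.47, and Fgf15 at 2.84 ± 3.12 moved ahead of Nr0b2 at 1.14 ± 0.36. The KO ranges of Slc51a and Slc51b, of Slc51b and Nr1h4, and of Fgf15 and Nr0b2 overlapped.

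**Figure D2:**
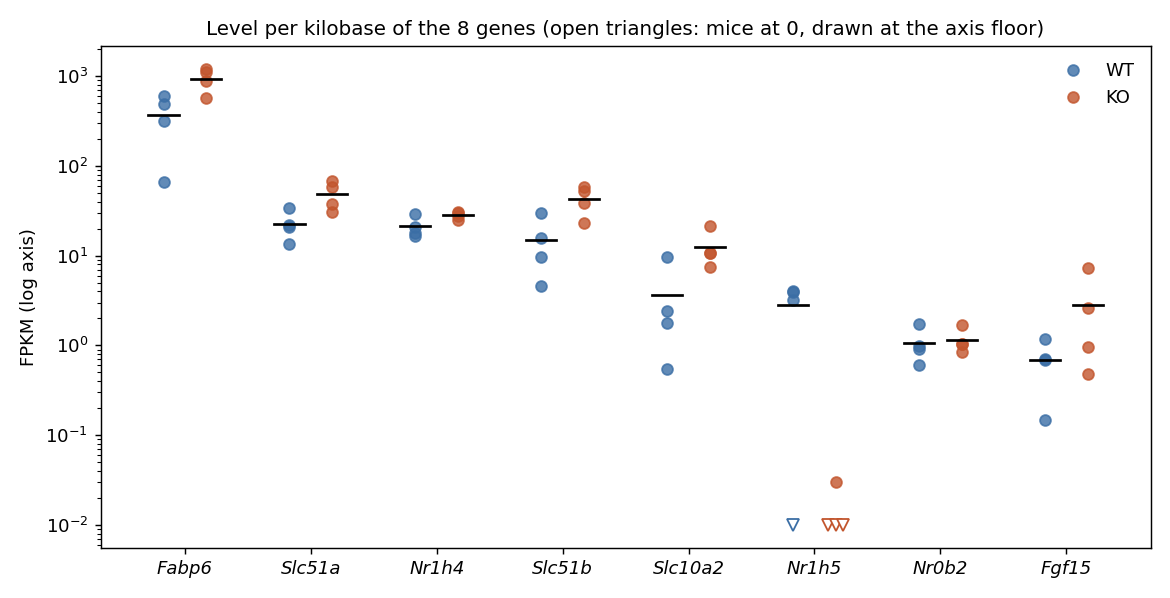
Level per kilobase of each gene in FPKM on a log axis, WT mice in blue and KO mice in orange, with the mean of 4 mice as a black line and mice at 0 as open triangles at the bottom. Fabp6 lies above all other genes in both genotypes, and the spread between WT mice is wider for Fabp6, Slc10a2 and Slc51b than for Nr1h4.

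The levels of these genes also varied widely between mice of the same genotype. The pooled within-genotype SD of log2 CPM was 1.07 for Fabp6, 1.27 for Slc10a2, 0.89 for Slc51b and 1.45 for Fgf15, against a median of 0.22 over all genes tested. The SD of these 4 genes exceeded that of 96.4% to 99.1% of the genes tested. Slc51a, at 0.54, was above 85.1%, and Nr1h4 above 58.9%. Split by the Xist and Y transcripts, the KO minus WT difference in mean log2 CPM of Fabp6 was 1.98 in the mice with Y transcripts and 1.38 in those with Xist, that of Slc10a2 was 3.13 and 1.64, that of Slc51b was 1.78 and 1.68, that of Slc51a was 0.97 and 1.23, and that of Fgf15 was 0.95 and 2.23, with 2 mice per genotype in each split.

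The levels of the transport genes varied together from mouse to mouse. With the genotype means removed, Pearson's r of log2 CPM among Fabp6, Slc10a2, Slc51a and Slc51b was 0.68 to 0.93 over 6 pairs of genes and 8 mice. Spearman's rho was lowest for Fabp6 with Slc10a2 (0.43) and highest for Slc51a with Slc51b (0.98). For each pair, the 2 mice farthest from the median of its first gene (in the order just given) were also left out. This left r between 0.21 and 0.89. The lowest of these values was that of Slc10a2 with Slc51b, and the highest that of Slc51a with Slc51b. The points share libraries, depth and the dissection of each mouse, and this correlation was part of how the genes were chosen.

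Slc51a followed the other ileal genes most closely. Its correlation with the mean log2 CPM of 16 other ileal enterocyte genes, genotype means removed, was 0.98 (rho 0.98), whereas that of Slc51b was 0.89, of Slc10a2 0.72, of Fgf15 0.68 and of Fabp6 0.56. Without the 2 mice farthest from the median of the respective gene, these values were 0.99, 0.87, 0.40, 0.31 and 0.64. The order of the last 3 turned, but the mice left out can differ between genes, so these values are not compared like for like. Slc51a also moved with the mean of the immune cell markers (r = 0.89), of the villus genes of the whole small intestine (r = 0.83) and of the proximal enterocyte genes (r = 0.80), genotype means removed. Fabp6 stood 0.20 log2 units above the mean of the other ileal genes in WT mouse 1. It stood 2.84, 2.04 and 1.68 above that ileal mean in the other WT mice, against 2.14, 2.77, 1.30 and 2.20 in the KO mice. The difference was 1.69 ± 1.11 in WT and 2.10 ± 0.61 in KO (SD, n = 4), with overlap. Slc51a lay 0.72 ± 0.13 above the ileal mean in WT and 0.55 ± 0.14 in KO, lower in KO in all 4 pairs. Slc10a2 stood at -2.18 ± 1.12 and -1.07 ± 0.69 relative to that mean, higher in KO in 3 of 4 pairs, and Slc51b at -2.27 ± 0.57 and -1.81 ± 0.23, higher in KO in 4 of 4. The ranges overlapped in each of these genes. The correlation with the ileal mean was -0.32 for Nr1h4, -0.12 for Nr0b2 and 0.08 for Nr1h5, and without the 2 farthest mice it was -0.19, 0.74 and 0.23.

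**Figure D3:**
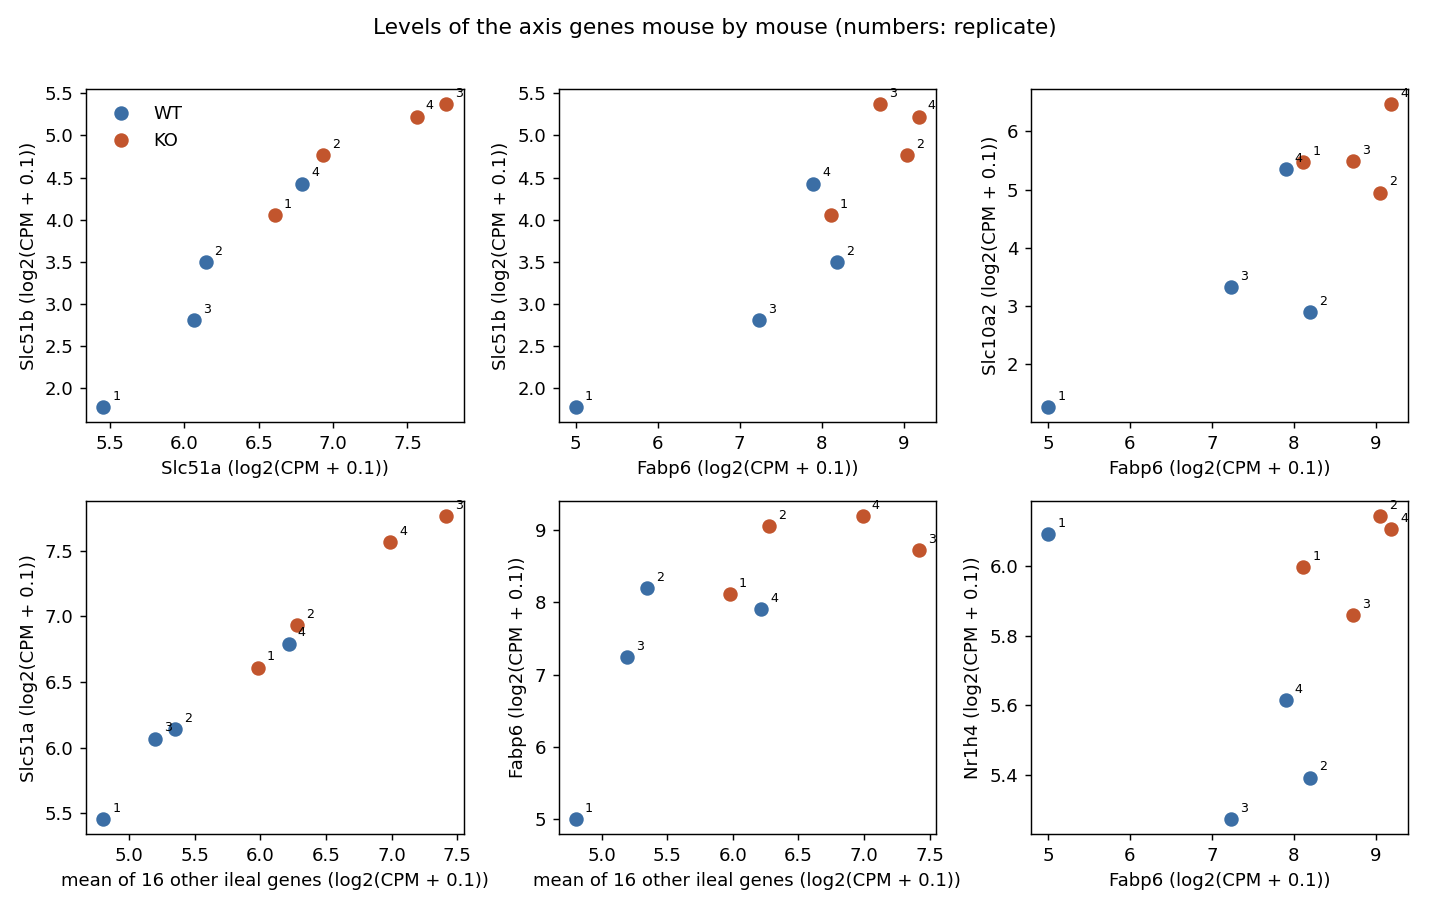
Each panel sets 2 quantities against each other in log2(CPM + 0.1), 1 point per mouse, WT in blue and KO in orange, with replicate numbers. Slc51a lies almost on a line with Slc51b and with the mean of 16 other ileal genes (r = 0.93 and 0.98 with genotype means removed), Fabp6 scatters more widely, and WT mouse 1 lies lowest for Fabp6 but near the KO mice for Nr1h4.

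Other genes resembled Fabp6 more than the rest of its own axis did. Among 12392 tested genes with a mean log2 CPM of at least 1, Slc51b ranked 156th in likeness to Fabp6 (r = 0.84), Slc10a2 633rd (r = 0.70) and Slc51a 702nd (r = 0.68), over 8 mice with genotype means removed. The 5 most similar genes were Gm6548 (r = 0.99), Igsf5 (0.99), 1190007I07Rik (0.97), Vav1 (0.97) and Bbs12 (0.97). The 5 most opposite were Ttc17 (-0.99), Kansl1l (-0.99), Mfsd2b (-0.98), Lyplal1 (-0.97) and Gm9770 (-0.96). With so many genes and 8 mice, and WT mouse 1 far below the others, high values of r are a description of these libraries only.

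The other genes of bile acid handling, taken from 5 lists, differed little between the genotypes. Of 58 genes, 41 were tested, 2 had a higher and 1 a lower level in KO at an unadjusted p under 0.05 in edgeR's quasi-likelihood test, and none passed after adjustment (1, Abcg2, with DESeq2). The background over all genes was 5.33% higher and 3.05% lower at that unadjusted p, and 0.00621% at an adjusted p under 0.05, which is Mex3a alone. The median log2 fold change of the 41 was 0.02, beside -0.02 over all genes. With the replicate number as a block, 5 of the genes passed the unadjusted threshold, where 7.14% of all genes were higher and 4.13% lower in that fit. Without KO mouse 1 the count was 7, where 13% of all genes passed in either direction.

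By role, Abcg2, an apical efflux pump, had 64.1 ± 9.57 CPM in WT and 93.9 ± 9.94 CPM in KO (n = 4), with every KO mouse above every WT mouse and a log2 fold change of 0.55 ± 0.12 (SE, adjusted p = 0.43 in edgeR's quasi-likelihood test). Baat, which conjugates bile acids to taurine or glycine, was the other gene past the threshold in this direction, at 0.48 ± 0.33 and 1.26 ± 0.71 CPM (adjusted p = 0.56, edgeR). S1pr2, a receptor for conjugated bile acids, was lower in every KO mouse, at 4.36 ± 0.58 and 2.86 ± 0.58 CPM (adjusted p = 0.52, edgeR). Hnf4a, a regulator of enterocyte genes, had 1182 ± 111 and 1146 ± 58.7 CPM, a log2 fold change of -0.04 ± 0.09 (SE). Nr1h3, the oxysterol receptor LXRα, had 33.6 ± 2.11 and 37.5 ± 4.94 CPM, a log2 fold change of 0.16 ± 0.10 (SE).

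Of 15 genes of bile acid synthesis and conjugation, 9 were tested and 1, Baat, was higher (2 with the block, and none without WT mouse 1, WT mouse 2, WT mouse 3, KO mouse 3 or KO mouse 4). Cyp27a1, the sterol 27-hydroxylase, had 18.3 ± 8.39 CPM in WT and 27.4 ± 14.1 CPM in KO. Of 12 other transporters 6 were tested, with a median log2 fold change of 0.08, and Slco2b1, an uptake carrier, had 89.1 ± 15.8 and 81.6 ± 11.5 CPM. Of 9 FGF15 receptors and related factors 6 were tested and none passed (median -0.05); Malrd1, which modulates FGF15 output, had 122 ± 26.1 and 150 ± 61.6 CPM. All 4 other FXR-responsive genes of the ileum were tested and none passed (median 0.11). Among them Nos2, the inducible nitric oxide synthase, had 25.1 ± 16 CPM in WT and 53.4 ± 26.1 CPM in KO (adjusted p = 0.64, edgeR), and it passed the unadjusted threshold when the replicate number was a block in the fit.

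Most genes of ileal enterocytes outside the axis were higher in KO crypts. Of 16 such genes, all tested, 15 passed the unadjusted threshold with a higher level in KO (5.33% of all genes did) and none passed after adjustment in edgeR (3, Naaladl1, Muc3 and Phgr1, with DESeq2). The median log2 fold change was 1.32 and the range 0.59 to 1.95, and in 3 of the genes every KO mouse lay above every WT mouse. With the replicate number as a block 14 passed: Cubn was gained, and Plb1 and Fam151a, named after their values were seen, were lost. The list was drawn up with earlier results of these data known, among them a higher level of 4 of its genes, so that its direction is not independent evidence. Those 4 include the 3 genes without overlap. Of the other 12, 11 passed the threshold, with a median of 1.46, and in each of the 12 the genotypes overlapped (smallest adjusted p = 0.52, edgeR). Leaving out 1 mouse left 10 to 16 of the 16, with 10 reached without WT mouse 1, WT mouse 3 or KO mouse 3.

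Among these genes Muc3, a membrane mucin, had 213 ± 16.7 CPM in WT and 334 ± 42.6 CPM in KO (log2 fold change 0.65 ± 0.11, SE), and Phgr1 had 74.2 ± 9.66 CPM in WT and 111 ± 5.43 CPM in KO (0.59 ± 0.09). Naaladl1, a brush border peptidase, had 263 ± 95.7 CPM in WT and 646 ± 193 CPM in KO (1.30 ± 0.30). All 3 genes separated the genotypes completely, with adjusted p of 0.33 for the first 2 and 0.50 for Naaladl1 (edgeR). Cubn, the vitamin B12 receptor and the gene that missed the threshold, is named after its values were seen. It had 37.6 ± 38.2 CPM in WT and 118 ± 104 CPM in KO (adjusted p = 0.62, edgeR), and it was the 1 gene of the list gained with the replicate block.

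Genes of the proximal intestine were described beside the ileal ones. Of 20 proximal enterocyte genes 19 were tested, 1 was higher and 1 lower at an unadjusted p under 0.05 against the background given above, and the median log2 fold change was 0.14. Apoa1, an apolipoprotein, had 273 ± 207 CPM in WT and 938 ± 735 CPM in KO (adjusted p = 0.52, edgeR). Onecut2, a proximal transcription factor, had 91.9 ± 7.97 CPM in WT and 58.0 ± 14.5 CPM in KO (adjusted p = 0.52, edgeR). Its ranges, 81.4 to 98.3 CPM in WT and 41.2 to 71.7 CPM in KO, did not overlap. With DESeq2 it passed after adjustment, as the only gene of this list. With the replicate block 2 genes of the list were lower. The number higher was 5 without WT mouse 4, 3 without KO mouse 1, 2 without KO mouse 2 and 0 without KO mouse 3, and the number lower was 3 without WT mouse 2 or KO mouse 4.

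Of 11 villus enterocyte genes common to the whole small intestine, 6 were higher by that threshold (9 with the replicate block), all 11 had a positive log2 fold change, and the median was 0.82. Anpep, a brush border aminopeptidase, had 672 ± 441 CPM in WT and 1777 ± 1036 CPM in KO, and Krt20, a keratin of differentiated cells, had 182 ± 105 CPM in WT and 377 ± 135 CPM in KO. Dgat1, of triglyceride synthesis, had 268 ± 18.4 CPM in WT and 343 ± 68.0 CPM in KO without overlap. The summed level of the list was 3550 to 6460 CPM in WT and 4894 to 13765 CPM in KO. The count depended on single mice: it was 1 without WT mouse 1, 0 without WT mouse 2, 1 without KO mouse 3, 3 without KO mouse 4 and 10 without KO mouse 1.

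Markers of other cells were counted by the same threshold, none passed after adjustment in edgeR, and their part in the difference of the axis genes was not tested. Of 8 stem cell markers 4 were lower in KO at an unadjusted p under 0.05 (5 with the replicate block), all 8 had a negative log2 fold change (median -0.28), and the summed level was 4509 to 5187 CPM in WT and 3367 to 4138 CPM in KO; the count was 2 without WT mouse 1, WT mouse 4 or KO mouse 2. Olfm4 had 3895 ± 408 CPM in WT and 3070 ± 364 CPM in KO and Smoc2 237 ± 16 and 191 ± 21 CPM. Of 7 Paneth cell markers none passed, or 3 with the replicate block, although all 7 had a negative log2 fold change (median -0.74), and the summed level spread from 16115 to 52930 CPM in WT and from 8074 to 26496 CPM in KO. Pla2g2a, a Paneth cell phospholipase, had 1765 ± 1614 CPM in WT and 321 ± 513 CPM in KO, and it passed the unadjusted threshold with the block.

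Of 10 immune cell markers 9 were tested and 2 were higher (4 with the replicate block), with a median log2 fold change of 0.77 and a summed level of 27.3 to 50.6 CPM in WT and 33.5 to 72.1 CPM in KO. These were Cd3e at 0.92 ± 0.65 and 2.82 ± 1.82 CPM and Cd8a at 3.14 ± 1.40 and 7.71 ± 4.69 CPM, both T cell genes; without WT mouse 3 or KO mouse 3 the count was 0, and without KO mouse 1 or KO mouse 2 it was 5. Of 7 goblet cell markers 2 were higher and 1 lower, and 4 were higher and 0 lower with the block; the lower call was also lost without WT mouse 1, WT mouse 3, WT mouse 4, KO mouse 1 or KO mouse 2 and with limma on log2(FPKM + 1). Zg16, a goblet cell lectin, had 533 ± 111 CPM in WT and 837 ± 161 CPM in KO. In the remaining lists, 1 of 9 enteroendocrine markers was higher (with the block Sct lost this call, Nts was higher and Gip lower, all named after their values were seen; none was higher without WT mouse 1, WT mouse 3, KO mouse 3 or KO mouse 4). None of 4 tested tuft markers passed (2 were lower with the block, with DESeq2 or without KO mouse 4, 3 without WT mouse 1 and 1 without WT mouse 3), and none of 5 tested stromal, vessel and muscle markers passed (1 was higher with the block or without KO mouse 1). The 1 tested blood marker was lower, a call lost without WT mouse 1, WT mouse 4, KO mouse 2, KO mouse 3 or KO mouse 4 and with limma on log2(FPKM + 1).

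**Figure D4:**
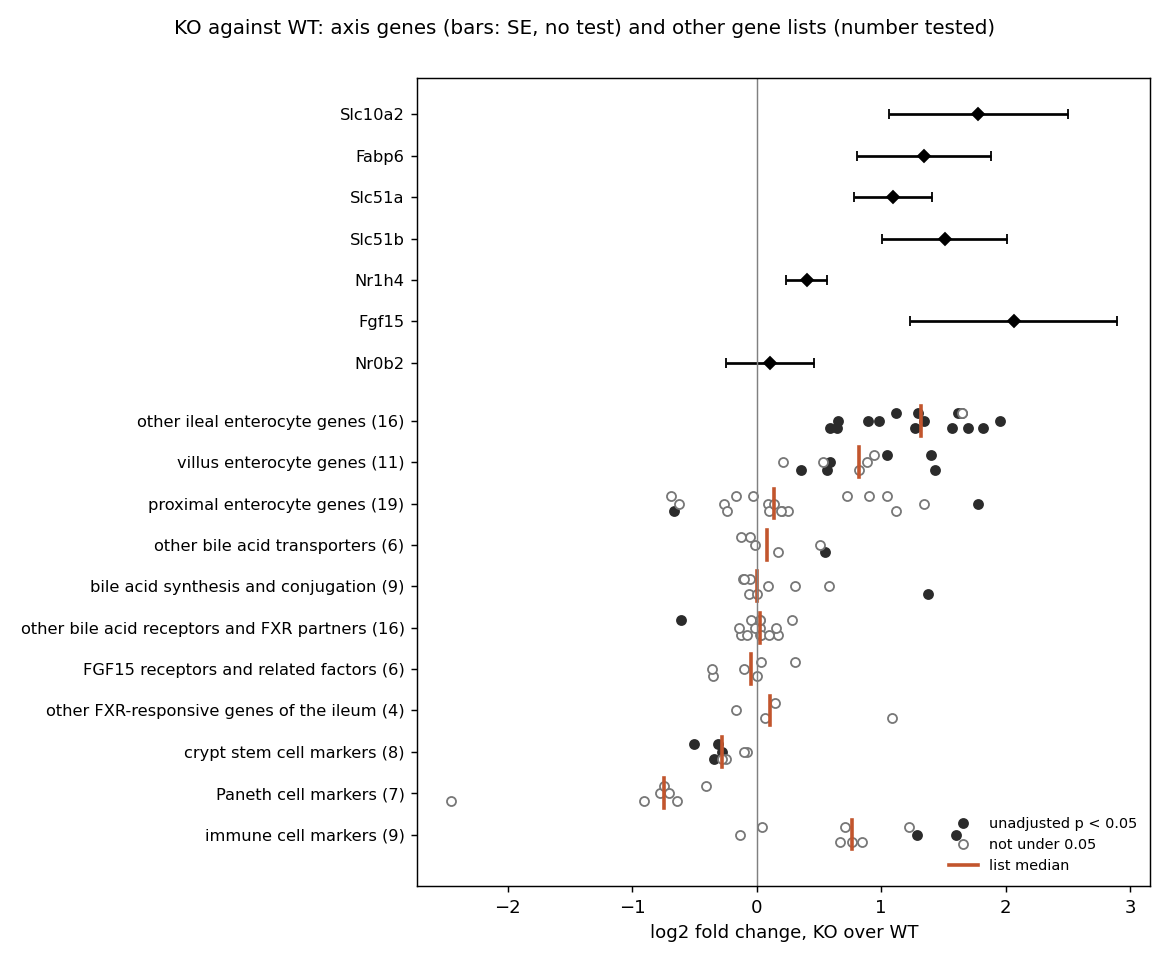
Log2 fold change of KO over WT: black diamonds with SE for the 7 fitted axis genes (no test), and 1 point per tested gene for 11 other lists, filled where the unadjusted p was under 0.05, with the list median as an orange line. The medians lie at 1.32 for the other ileal genes, 0.82 for villus genes and near 0 for the other bile acid lists.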

How the data were processed

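RNA from the crypts of 4 Mex3a KO and 4 WT mice was measured by RNA-seq. Read counts per gene were deposited by the authors without normalization, with HISAT2 2.0.5 and featureCounts 1.5.0-p3 named in the submitters' processing notes; strandedness is not given in the sources used here. The deposited FPKM values divide these counts by gene length and library size, times 1 further constant per mouse (0.951 to 1.041). The authors' own fold changes and p-values, which the table also holds, were not used. Gene coordinates are those of GRCm38 (GENCODE M21): 54723 of 55114 identifiers were found, and 54037 of these, all 8 members included, had identical start and end positions. Genes with no symbol, 276 in number, held at most 0.284% of the counts of a mouse.

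Counts were compared with edgeR 4.0.16 in R 4.3.3 (filterByExpr with a minimum count of 10, TMM, quasi-likelihood test, genotype as the only term, Benjamini-Hochberg adjustment), which left 16109 genes tested. CPM were made from the TMM-scaled library sizes, and 0.1 was added before log2. FPKM was used where levels of different genes were compared. Totals of 20324184 to 30654105 counts per mouse make counting error small for all members but Fgf15, Nr0b2 and Nr1h5. The p-values measure the spread between these mice. The alternatives were DESeq2 1.42.0, limma 3.58.1 on log2(FPKM + 1) or log2(FPKM + 0.1), other scaling factors and filters, the replicate number as a block, the Xist group as a covariate, and leaving out each of the 8 mice.

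The 8 members and the gene lists were chosen with earlier results of these data known. Besides the members, at most the 3 genes with the smallest unadjusted p and the most abundant gene of a list were named, with the 5 genes most and least correlated with Fabp6. In the labels both genotypes use replicate numbers 1 to 4. Once the mean of its genotype was subtracted from each mouse, the 4 pairs with equal numbers had correlations of 0.129 to 0.504 over all genes. Correlations of pairs with unequal numbers are not given here. Equal numbers also share Xist or Y status, so a true pairing cannot be told apart from that status. The main fit therefore keeps genotype as its only term. List counts from a fit with the number as a replicate block are printed where they differ. Libraries of the same genotype differed by more than sampling noise (chi-square divided by its degrees of freedom, 20.9 to 76.5). Figures were drawn with matplotlib 3.10.9.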

Additional observations from a re-analysis of the deposited data

Results flagged for a closer look

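Among 16 groups of 4 mice (8 genes, both genotypes), 1 held a mouse that stood apart by Dixon's criterion for 4 values. Nr1h5 was at 0.0865 CPM in KO mouse 3, from 2 counts, and at 0 in the other 3 KO mice. The value lies below the limit that a count of 0 allows (3 counts). Chance alone marks about 1 in 20 such groups.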

How the results depend on the processing

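The log2 fold changes of the 7 fitted axis genes stayed positive under all 18 alternatives except for Nr0b2, which ranged from -0.12 to 0.45 when 1 mouse was left out (-0.08 without WT mouse 1 and -0.12 without KO mouse 1). Over the 8 fits that leave out a mouse, Fabp6 ranged from 0.99 to 1.69, Slc10a2 from 1.40 to 2.997, Slc51a from 0.90 to 1.37, Slc51b from 1.21 to 2.10, Fgf15 from 0.98 to 2.46 and Nr1h4 from 0.31 to 0.60. With the replicate block they were 1.65, 2.28, 1.1, 1.71, 1.67 and 0.43. Fgf15 was at 0.90 on log2(FPKM + 1) and at 1.48 on log2(FPKM + 0.1), and the cause of the lower values was not tested. Of these genes, 0 to 3 separated the genotypes when a mouse was left out.

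Genes with an adjusted p under 0.05 numbered 93 with DESeq2, 0 with the replicate block or with at least 10 counts required in every mouse, 2 without a filter, 4 with the Xist group as a covariate, 2 with limma on FPKM at either added constant, 3 with limma and no filter, and 0 to 4 without 1 mouse. Genes with an unadjusted p under 0.05 numbered 846 (without KO mouse 3) to 2133 (without KO mouse 1) and 1815 with the replicate block, beside 1350. The other bile acid genes past that threshold numbered 5 without a filter, 5 with the replicate block and 2 to 7 without 1 mouse. The log2 fold change of Hnf4a ranged from -0.080 to 0.028 without 1 mouse, the latter without WT mouse 3. The causes of these differences were not tested. Of 449 values of 25 named genes, 401 kept their direction and side of the unadjusted threshold, 30 lost significance, 17 gained it and 1 reversed. The calls that the replicate block changed in the lists are given beside their counts. Depth limits Fgf15, Nr0b2 and Nr1h5, each with under 50 counts in several mice.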
